A study of Mus musculus with 18 samples.

Results

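Kmt5c, Cenpb and Cdyl2 were followed as 3 chromatin genes in MIN6 cells, a mouse insulinoma line used as a model of the pancreatic β-cell. All 3 had more ribosome footprint reads relative to mRNA reads when calcium handling of the endoplasmic reticulum (ER) was disturbed. They were chosen, out of the 6929 genes that had a transcript with reads in every library, because the ratio of ribosome profiling (Ribo-seq) to mRNA-seq signal was raised under cyclopiazonic acid (CPA), so the rise itself is a description here and no test is attached to it. CPA blocks the pump that moves calcium into the ER, and the resulting stress slows protein synthesis early and lets it recover in part later. Control cells received DMSO for 18 h, CPA1 cells 200 µM CPA for 1 h and CPA18 cells 200 µM CPA for 18 h, in 3 independent experiments, each with 1 mRNA-seq and 1 Ribo-seq library per treatment (18 libraries). All cells were of 1 tumour-derived line with no genetic change added, grown in the same medium, and the solvent control was matched in time to CPA18 and not to CPA1.

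Kmt5c (also Suv420h2) is the methyltransferase that places the third methyl group on lysine 20 of histone H4, a mark of silent chromatin around centromeres. Cenpb is the centromere protein that binds a short DNA motif, the CENP-B box, within centromeric satellite repeats, and its gene is known to have descended from a transposase. Cdyl2 belongs to the chromodomain Y-like proteins, which read methylated lysines of histone H3 and carry an enzyme-like domain related to enoyl-CoA hydratases. These marks act in steps: methylated H3 lysine 9 recruits heterochromatin protein 1, which in turn recruits the H4 lysine 20 methyltransferases.

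In the mouse genome (GRCm38.p6, RefSeq annotation) Kmt5c lies at chr7:4740092-4747514 on the + strand, Cenpb at chr2:131177289-131180067 on the − strand and Cdyl2 at chr8:116568723-116732991 on the − strand. The 27 bases around each start codon are shown because ribosome occupancy depends on where ribosomes begin, with capitals marking position −3, the ATG and position +4 counted from the A of the ATG.
Kmt5c: ttttaaagcAccATGGggcctgatcga
Cenpb: gggcgcgccGggATGGgccccaagcgg
Cdyl2: ccgcagcctGgcATGGcttctggggac
All 3 had a purine at −3 and a G at +4, the pair of positions known to favour recognition of a start codon, as did 48.6% of the 6889 genes for which this window could be read.

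The 3 messages were otherwise unlike each other. Kmt5c had 3 RefSeq transcripts with the same coding sequence of 1407 nt and 9 exons, and their 5′ untranslated regions measured 147, 205 and 784 nt. The longest of these, in NM_001358044.1, exceeded that of 97.7% of 6904 genes and held 4 upstream ATGs and 1 upstream open reading frame that closed before the main start. Cenpb was a single-exon gene with a 5′ untranslated region of 89.0% G and C, a share exceeded in 31 of 6891 genes. Its coding sequence carried 21 successive codons for glutamate or aspartate, codons 515 to 535 at chr2:131178272-131178334, and 12 of 6904 genes had a longer such run. The run is shown because it is the most unusual stretch of the 3 coding sequences by this measure, with the 9 GAG glutamate codons in capitals.
Cenpb codons 515 to 535: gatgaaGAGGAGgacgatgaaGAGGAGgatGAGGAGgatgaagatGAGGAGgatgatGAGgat
Cdyl2 had a message of 8087 nt, of which 6405 nt lay in the 3′ untranslated region, and 76 of 6904 genes had a longer one. Its GC content of 47.5% was the lowest of the 3, against 60.2% in Kmt5c and 63.0% in Cenpb.

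The libraries held between 520960 and 4755030 mRNA-seq counts and between 168129 and 1083297 Ribo-seq counts. All 10 β-cell markers had reads in each treatment, with a summed level of 158853 to 464532 RPKM (reads per kilobase of transcript, scaled by the library's aligned reads) in control mRNA-seq and 44266 to 135599 RPKM in CPA18 mRNA-seq, while 12 markers of other islet, exocrine, stromal and immune cells summed to 24.3 to 242 RPKM in any library. Beside this lower marker level the median gene was 0.35 higher on the log2 scale in CPA18 than in control mRNA-seq and 0.40 higher in Ribo-seq, and the part of the marker level in that shift was not tested. Counts cover whole transcripts, untranslated regions included, and the positions of reads were not analysed here. In bulk cultures a smaller number of cells of a kind and less RNA per cell cannot be told apart.

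Kmt5c showed the largest rise in ribosome occupancy at 18 h of any of the 6929 genes, and it came from the Ribo-seq side. Its mRNA-seq level was 7.05, 12.1 and 10.9 RPKM in control experiments 1 to 3, 11.1, 10.9 and 12.9 RPKM in CPA1, and 3.04, 8.86 and 15.3 RPKM in CPA18. These ranges overlapped, with means of 10.0 ± 2.64, 11.6 ± 1.11 and 9.08 ± 6.15 RPKM (SD, n = 3). The Ribo-seq level was 10.4, 7.07 and 14.7 RPKM in control, 98.9, 36.6 and 312 RPKM in CPA1, and 89.9, 305 and 416 RPKM in CPA18. Every CPA library was above every control library in Ribo-seq, whereas CPA1 and CPA18 overlapped. The order of the means was control (10.7 ± 3.84 RPKM), CPA1 (149 ± 144 RPKM) and CPA18 (270 ± 166 RPKM), and CPA1 and CPA18 differed by less than their spread.

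The read counts behind these levels were modest in mRNA-seq and high in Ribo-seq. Kmt5c had between 9 and 100 mRNA-seq counts per library, 438 in all, which placed it 3861st of the 6929 genes by this sum. It had between 15 and 548 Ribo-seq counts, 1314 in all, which placed it 572nd. In Ribo-seq of control experiments it stood above 39.2% to 55.5% of the genes by RPKM, and in CPA18 above 85.5% to 96.1%.

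Cenpb was the most abundant of the 3 messages and the one with the lowest ratio of Ribo-seq to mRNA-seq level. Its mRNA-seq level was 65.2, 190 and 195 RPKM in control, 53.3, 103 and 152 RPKM in CPA1, and 55.5, 180 and 192 RPKM in CPA18. Experiment 1 gave the lowest mRNA-seq level in each treatment, and the 3 treatments overlapped (means of 150 ± 73.58, 103 ± 49.2 and 143 ± 75.6 RPKM, SD, n = 3). The Ribo-seq level was 28.9, 18.6 and 27.4 RPKM in control, 62.7, 44.1 and 42.8 RPKM in CPA1, and 82.1, 31.3 and 71.5 RPKM in CPA18. Every CPA library exceeded every control library in Ribo-seq, and CPA1 and CPA18 overlapped (means of 24.98 ± 5.53, 49.9 ± 11.1 and 61.7 ± 26.8 RPKM). Counts ran from 96 to 2420 in mRNA-seq and from 18 to 112 in Ribo-seq.

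Cdyl2 was a rare message, and it was the one whose mRNA level was lower after 18 h. Its mRNA-seq level was 0.475, 0.902 and 0.668 RPKM in control, 0.754, 0.981 and 0.588 RPKM in CPA1, and 0.0996, 0.286 and 0.206 RPKM in CPA18. All CPA18 values lay below all control and all CPA1 values. These levels rest on few reads: 2, 12 and 13 counts in control, 10, 12 and 9 in CPA1, and 1, 11 and 3 in CPA18. The single count of CPA18 experiment 1 has an exact 95% Poisson interval of 0.00252 to 0.555 RPKM, which covers counting error only and reaches into the control range.

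The Ribo-seq level of Cdyl2 was 1.51, 0.931 and 1.83 RPKM in control, 4.77, 0.945 and 5.26 RPKM in CPA1, and 2.94, 6.70 and 14.1 RPKM in CPA18. CPA18 lay above control in every library, while CPA1 overlapped control through its experiment 2 and overlapped CPA18 through experiment 1 of CPA18, a value of 4 counts. The counts were 10, 7 and 16 in control, 20, 3 and 20 in CPA1, and 4, 11 and 63 in CPA18. Means were 1.42 ± 0.454, 3.66 ± 2.36 and 7.90 ± 5.66 RPKM (SD, n = 3), so CPA1 and CPA18 did not differ beyond their spread.

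**Figure D1:**
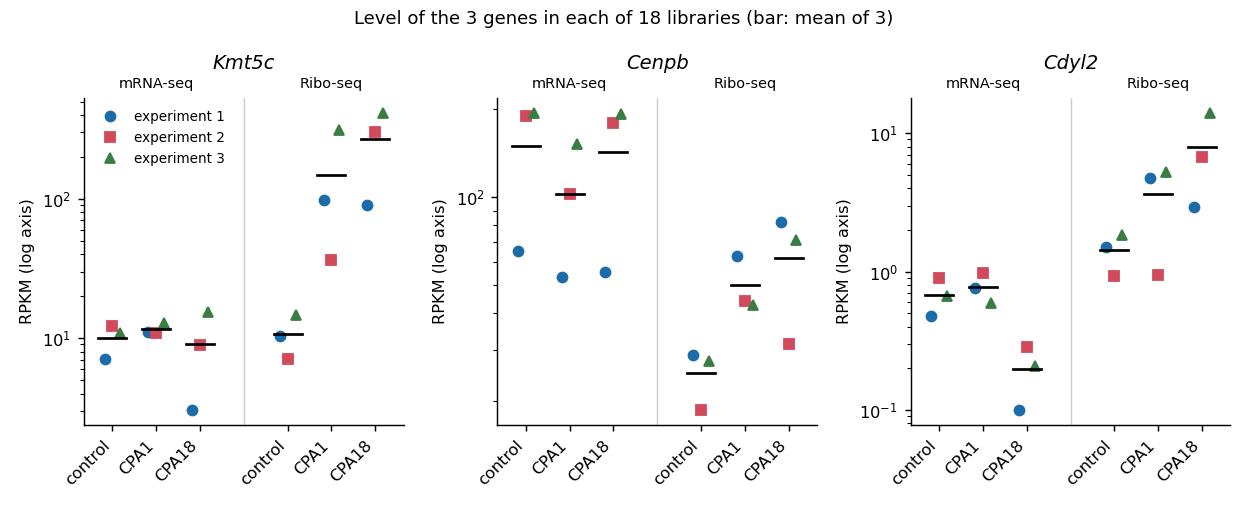
Level of Kmt5c, Cenpb and Cdyl2 in RPKM on a log axis, for mRNA-seq and Ribo-seq under control, CPA1 and CPA18; each point is 1 library and each bar the mean of 3 libraries. Kmt5c Ribo-seq went from a mean of 10.7 RPKM in control to 270 RPKM in CPA18 while its mRNA-seq groups overlapped, and Cdyl2 was the gene whose 3 CPA18 mRNA-seq values lay below all 3 controls.

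Ribosome occupancy was taken as the Ribo-seq RPKM divided by the mRNA-seq RPKM of the same treatment and experiment. Both levels are scaled to library totals, so the ratio is relative to other genes and is not a number of ribosomes per message. Occupancy is given as log2 of that ratio. For Kmt5c it was 0.56, −0.78 and 0.44 in control, 3.16, 1.75 and 4.60 in CPA1, and 4.89, 5.10 and 4.76 in CPA18. Kmt5c therefore went from a place above 22.7% to 54.7% of genes in control to a place above 99.64% to 99.86% of genes in CPA18. The 3 CPA18 values had an SD of 0.17 even though the levels behind them differed between experiments, against an SD of 1.42 in CPA1. In CPA18 experiment 1 the ratio rests on 9 mRNA-seq and 36 Ribo-seq counts. Counting error alone gives its mRNA-seq level of 3.04 RPKM a Poisson interval of 1.39 to 5.77 RPKM. The small SD of the CPA18 values is therefore not read as precision.

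For Cenpb the log2 ratio was −1.17, −3.35 and −2.83 in control, 0.24, −1.22 and −1.82 in CPA1, and 0.56, −2.52 and −1.43 in CPA18. Experiment 1 was the highest in each treatment, so the groups overlapped although each experiment moved upward. Control occupancy stood above 0.419% to 7.03% of genes, and CPA18 occupancy above 1.96% to 32.4%, so that Cenpb remained among the less occupied messages.

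For Cdyl2 the log2 ratio was 1.67, 0.05 and 1.45 in control, 2.66, −0.05 and 3.16 in CPA1, and 4.89, 4.55 and 6.09 in CPA18. CPA18 was above every control and every CPA1 value, and CPA1 overlapped control. In CPA18 Cdyl2 stood above 99.57% to 99.97% of genes.

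**Figure D2:**
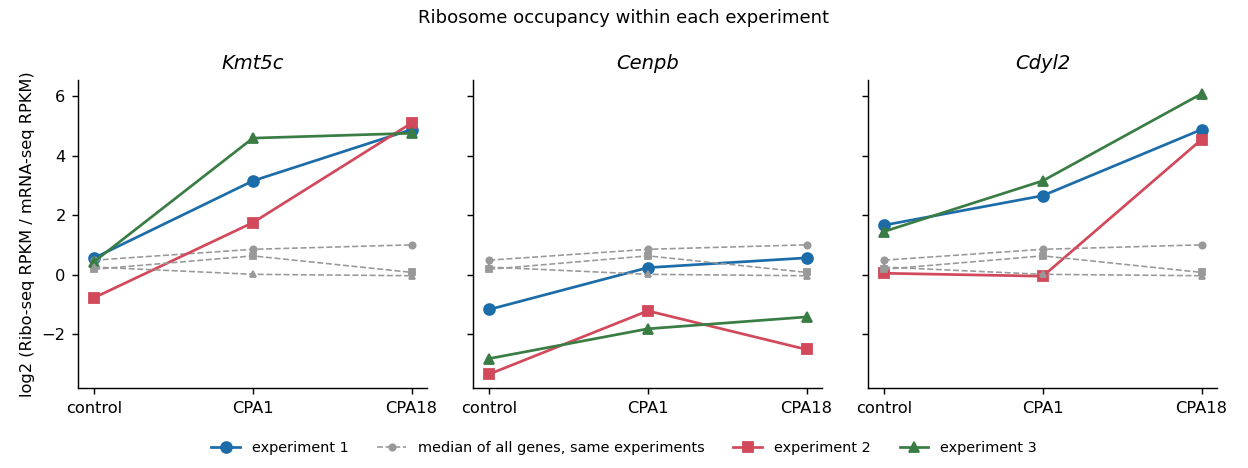
Log2 of Ribo-seq RPKM over mRNA-seq RPKM within each experiment for the 3 genes under control, CPA1 and CPA18, with a line per experiment and the median gene for reference. The CPA18 values of Kmt5c lay between 4.76 and 5.10, those of Cdyl2 between 4.55 and 6.09, and Cenpb rose from a low start with experiment 1 on top in each treatment.

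The change within each experiment gives the same order of sizes. At 18 h Kmt5c occupancy changed by 4.33, 5.88 and 4.32 on the log2 scale, a mean of 4.84 ± 0.90 (SD, n = 3) or 28.7-fold, and Cdyl2 occupancy by 3.22, 4.50 and 4.64, a mean of 4.12 ± 0.78 or 17.4-fold. The Cdyl2 value rests on CPA18 mRNA-seq levels of 0.0996 to 0.286 RPKM, and with 0.5 RPKM added to both levels before the ratio its mean change was 2.67. Cenpb occupancy changed by 1.74, 0.83 and 1.40, a mean of 1.32 ± 0.46 or 2.50-fold. Among the 6929 genes these means ranked 1st, 4th and 353rd, and the median gene changed by 0.07.

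At 1 h the genes separated differently. Kmt5c occupancy changed by 2.60, 2.53 and 4.16, a mean of 3.09 ± 0.92 or 8.54-fold, which ranked 2nd. Cenpb occupancy changed by 1.41, 2.13 and 1.00, a mean of 1.52 ± 0.57 or 2.86-fold, which ranked 167th. Cdyl2 occupancy changed by 0.99, −0.10 and 1.71, a mean of 0.87 ± 0.91, which is within its own spread, and the median gene changed by 0.18.

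Between 1 h and 18 h the occupancy of Cdyl2 differed by 3.25 ± 1.22 (SD, n = 3), higher at 18 h in all 3 experiments. Kmt5c differed by 1.75 ± 1.59, also higher in all 3 but by only 0.17 in experiment 3. Cenpb differed by −0.19 ± 0.96, with experiment 2 moving down and the others up.

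Split into its 2 sides, the 18 h change of Kmt5c was 4.45 ± 1.20 in Ribo-seq and −0.39 ± 0.86 in mRNA-seq, and that of Cenpb was 1.21 ± 0.41 in Ribo-seq and −0.11 ± 0.11 in mRNA-seq (mean log2 change ± SD, n = 3). For Cdyl2 both sides moved, by 2.25 ± 1.11 in Ribo-seq and −1.87 ± 0.33 in mRNA-seq, the latter ranking 6846th of the 6929 genes from the top. At 1 h the Ribo-seq changes were 3.34 ± 1.02 for Kmt5c, 1.00 ± 0.32 for Cenpb and 1.07 ± 0.91 for Cdyl2, and the mRNA-seq values of all 3 genes overlapped those of control. Within experiments, however, Cenpb mRNA-seq was lower in CPA1 in 3 of 3, by a mean log2 change of −0.51 ± 0.33, which adds to its Ribo-seq change in the ratio.

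Groups that did not overlap are common in these data, so the counts for the 3 genes need that background. In occupancy Kmt5c lay above control at 1 h, as 5.33% of genes did, and Kmt5c and Cdyl2 lay above control at 18 h, as 4.16% of genes did. In Ribo-seq Kmt5c and Cenpb lay above control at 1 h (10.3% of genes) and all 3 at 18 h (31.0% of genes). In mRNA-seq Cdyl2 lay below control at 18 h (5.43% of genes) and below CPA1 (4.96% of genes). Kmt5c and Cdyl2 also had higher occupancy in CPA18 than in any CPA1 experiment, as 2.45% of genes did. Because the genes were chosen on these contrasts, nothing is read from the counts.

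**Figure D3:**
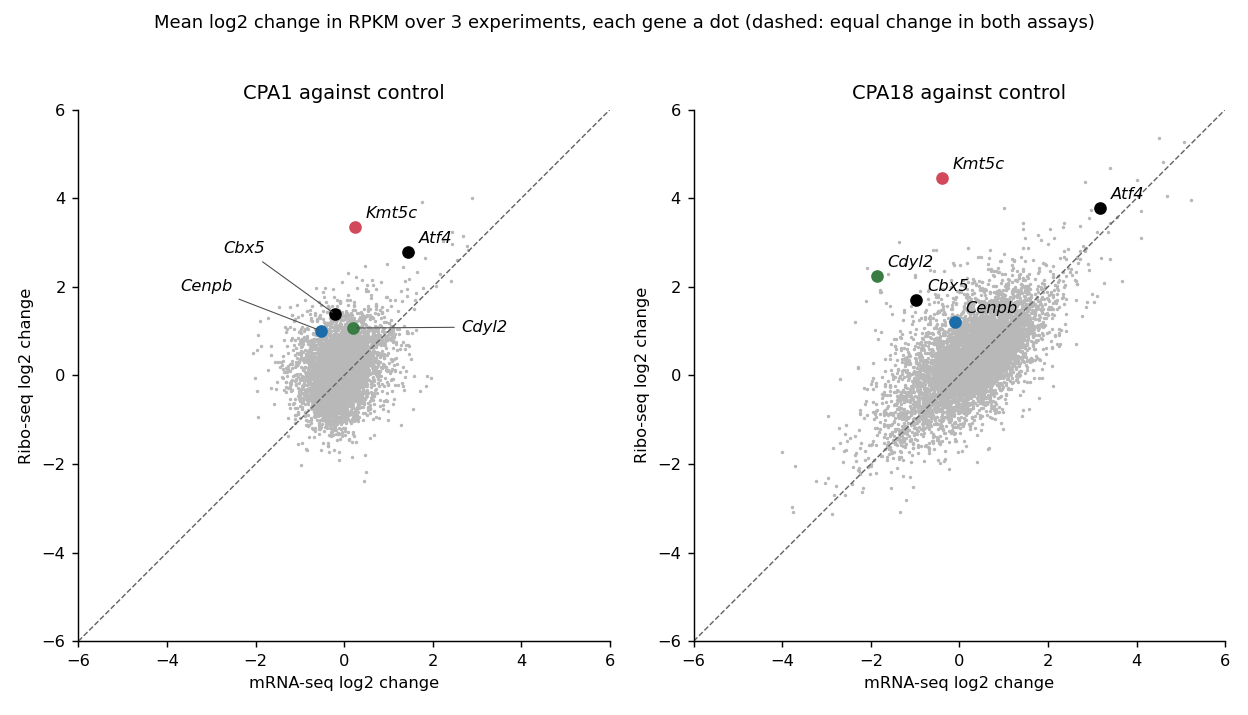
Mean log2 change in mRNA-seq RPKM (x axis) against that in Ribo-seq RPKM (y axis) over 3 experiments, for CPA1 and CPA18 against control; each dot is a gene and the dashed line marks an equal change in both assays. Kmt5c lay far above the line with an mRNA-seq change near 0 (−0.39 at 18 h), and Cdyl2 lay to the left at −1.87 and above at 2.25.

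A model across all genes, edgeR's quasi-likelihood fit with the experiment as a block, gave changes of like size from counts. The fitted log2 occupancy change of Kmt5c was 3.40 (SE 0.50) at 1 h and 4.87 (SE 0.50) at 18 h. It was 1.51 (SE 0.33) and 1.39 (SE 0.33) for Cenpb, and 1.23 (SE 0.65) and 4.23 (SE 0.69) for Cdyl2. When occupancy was instead taken as a ratio of group means, as the study's methods define it, Kmt5c had ratios of 1.07, 12.8 and 29.8 in control, CPA1 and CPA18, Cdyl2 2.09, 4.72 and 40.1, and Cenpb 0.166, 0.486 and 0.432. By this ratio, which carries no spread, Kmt5c and Cdyl2 were higher after each step. The ratio of Cenpb increased from control to CPA1 and then changed by −0.17 on the log2 scale. Within experiments the first step of Cdyl2 (0.87 ± 0.91) was within its spread. The second step of Kmt5c (1.75 ± 1.59) was close to its spread.

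Sequence that each gene shared with other transcripts was searched for as exact windows of 25 bases. Aligned reads could be shorter than this window, and matches with a mismatch were not searched. Whether the reads of each gene were its own was therefore not tested. None of the 2790 windows of 25 bases in Kmt5c was found in another gene's RefSeq transcript, against 34 of 2755 (1.23%) in Cenpb, all inside its coding sequence and none touching the acidic run, and 39 of 8063 (0.484%) in Cdyl2, all touching the 3′ untranslated region. None of the windows matched any of 6625 small RNA features, and the longest stretch that any of the 3 shared with the ribosomal RNAs available here, of which 28S was present only in part, was 12 bases. No other annotated gene covered an exon base of the 3 genes.

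Kmt5c reads were divided among its 3 transcripts in nearly even parts. NM_001358044.1, the form with the long leader and 579 nt of its own, took 19 of 73 Ribo-seq counts in control (26.03%, 95% Wilson interval 17.3% to 37.1%), 180 of 509 in CPA1 (35.4%, 31.3% to 39.6%) and 238 of 732 in CPA18 (32.5%, 29.2% to 36.0%). The intervals overlap, and since 2177 nt are common to all 3 forms, the counting could split shared reads between them.

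The close relatives of these genes had no single transcript with reads in every library and were fitted separately. Kmt5a and Kmt5b, the enzymes that add the first and the second methyl groups to H4 lysine 20, had 4 to 44 and 4 to 43 mRNA-seq counts and 3 to 26 and 0 to 12 Ribo-seq counts per library. Cdyl, a CDYL protein that bridges histone methylation and repressor complexes, had 0 to 7 mRNA-seq and 0 to 2 Ribo-seq counts. In an edgeR quasi-likelihood fit of all genes with no filter none of the 3 passed an adjusted p (Benjamini-Hochberg) of 0.05 against control in Ribo-seq or occupancy, with 1 of these 12 results, Cdyl occupancy at 1 h, under an unadjusted p of 0.05. The shares of all genes called in that fit were 2.62% in Ribo-seq and 0.203% in occupancy at 1 h, and 14.7% and 0.703% at 18 h. For Kmt5a the fitted log2 occupancy change at 18 h was −0.56 (SE 0.69) and for Kmt5b 0.58 (SE 0.82), both smaller than their SE. The SEs of Kmt5a and Kmt5b are close to the 0.69 of Cdyl2 at 18 h. For Cdyl the fitted change was 4.04 (SE 2.03) at 1 h and 2.87 (SE 2.07) at 18 h. It had the direction of Cdyl2 but was far less precise, with 0 to 2 Ribo-seq counts per library.

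Genes of the same chromatin pathways were then counted from 3 lists that leave out Kmt5c, Cenpb and Cdyl2: H4K20 and H3K9 methylation and heterochromatin, centromere and kinetochore, and chromodomain proteins with CDYL partners and Polycomb. Of the 29, 41 and 30 genes listed, 15, 25 and 15 had reads in every library and were tested. Occupancy rose in 1 of these 55 genes at 18 h and fell in none, beside 0.462% and 0.0144% of all genes (edgeR quasi-likelihood test, Benjamini-Hochberg adjusted p under 0.05), with 4 higher and 2 lower at an unadjusted p under 0.05. The median fitted log2 change of the 55 genes was 0.01, against 0.05 for all genes. At 1 h none was called in occupancy in either direction by edgeR, beside 0.0866% of all genes higher and 0% lower, with 7 higher and 0 lower at an unadjusted p under 0.05 and a median of 0.27 against 0.16.

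The gene whose occupancy rose was Cbx5, which encodes heterochromatin protein 1α, a reader of methylated H3 lysine 9. Its mRNA-seq level was 5.21, 2.95 and 2.16 RPKM in control and 1.55, 1.73 and 1.63 RPKM in CPA18, and its Ribo-seq level 2.07, 0.608 and 0.522 RPKM in control and 7.41, 1.67 and 1.83 RPKM in CPA18. CPA18 lay below control in mRNA-seq, and the Ribo-seq groups overlapped because control experiment 1 was above the other two experiments' CPA18 values. The fitted occupancy change was 2.62 (SE 0.58, edgeR adjusted p = 0.0112), the mRNA-seq change −0.92 (adjusted p = 0.0266) and the Ribo-seq change 1.69 (adjusted p = 0.00332), all from edgeR. Ribo-seq counts of Cbx5 were 15, 5 and 5 in control and 11, 3 and 9 in CPA18, and the occupancy call was lost when experiment 1 (adjusted p = 0.304) or experiment 2 (adjusted p = 0.149) was left out of the edgeR fit, with limma (adjusted p = 0.0883) and without the experiment block (adjusted p = 1.00). DESeq2 gave no adjusted p for this gene.

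**Figure D4:**
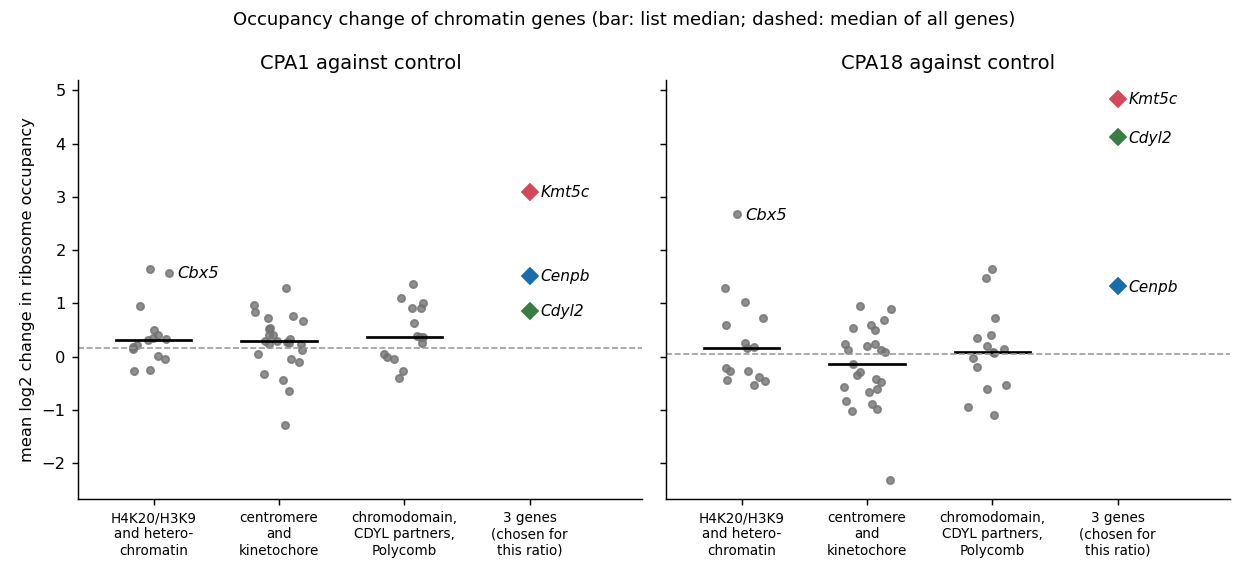
Mean log2 change in ribosome occupancy of the 55 chromatin genes by list, beside Kmt5c, Cenpb and Cdyl2, for CPA1 and CPA18 against control; each point is a gene, bars are list medians and the dashed line is the median of all genes. The lists gathered around the median of all genes (0.07 at 18 h), while Kmt5c was at 4.84 and Cdyl2 at 4.12 at 18 h.

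On the mRNA-seq side 7 of the 55 genes rose and 7 fell at 18 h, beside 27.0% and 7.89% of all genes (edgeR, adjusted p under 0.05). The split was 1 and 3 in the methylation and heterochromatin list, 5 and 2 in the centromere and kinetochore list, and 1 and 2 in the chromodomain and Polycomb list. It depended on scaling: with TMM factors, which centre the libraries on genes in the middle of the distribution, it was 4 higher and 14 lower, with the libraries brought to an equal median 4 and 13, and without Ins1, Ins2 and Lars2 in the totals 4 and 11. The median of the 55 genes was 0.01 against 0.38 for all genes. Without the experiment block 1 of the 55 genes was called, without experiment 2 there were 8, without experiment 3 there were 7, and without the control mRNA-seq library of experiment 2 alone there were 7.

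Among these, Kdm4a, a demethylase of H3 lysine 9, rose from 4.24 to 6.43 RPKM in control to 16.6 to 32.4 RPKM in CPA18 mRNA-seq, a change of 2.28 (SE 0.32, edgeR adjusted p = 3.2e-10). Nsl1 and Mis12, subunits of the kinetochore complex that joins the centromere to the outer kinetochore, rose by 2.15 (SE 0.44) and 1.35 (SE 0.52), and Ezh1, a methyltransferase of Polycomb complex 2, by 1.47 (SE 0.40). The Mis12 groups overlapped, at 3.85, 1.22 and 0.277 RPKM in control and 2.42, 2.39 and 4.27 RPKM in CPA18. Its control counts were 6, 6 and 2, and experiment 1 moved down. Suz12, another subunit of that complex, fell by 1.72 (SE 0.31), but control experiment 2 stood at 94.9 RPKM against 13.5 and 7.99 RPKM in the other controls, and without that library the edgeR change was −0.93 (adjusted p = 0.0937). The remodeller Chd4 fell by 1.51 (SE 0.33), the kinetochore subunit Spc25 by 1.26 (SE 0.28), the remodeller Atrx by 1.23 (SE 0.39), the kinetochore motor Cenpe by 1.09 (SE 0.42) and the DNA methyltransferase Dnmt3a by 1.07 (SE 0.33). The Atrx groups overlapped, at 4.68, 2.73 and 0.446 RPKM in control and 0.472, 1.60 and 0.489 RPKM in CPA18, with experiment 3 slightly up. Those of Cenpe overlapped too, with a lowest control of 0.691 RPKM and a highest CPA18 of 1.35 RPKM. At 1 h Suz12 was the single call, at −1.15 (SE 0.31, edgeR adjusted p = 0.0335), beside 0.433% of all genes lower, and without control experiment 2 there was none.

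In Ribo-seq 4 of the 55 genes rose and 7 fell at 18 h, beside 25.6% and 6.25% of all genes (edgeR, adjusted p under 0.05), and with TMM scaling 3 rose and 14 fell. Without experiment 2 the calls numbered 7 in place of 11. Kdm4a rose by 1.58 (SE 0.30), Zwint, which links the kinetochore to its checkpoint proteins, by 1.01 (SE 0.17) and Hjurp, the chaperone that deposits the centromeric histone CENP-A, by 0.78 (SE 0.27). Aurkb, the kinase of the chromosomal passenger complex, fell by 1.60 (SE 0.51), Atrx by 1.32 (SE 0.32), Chd4 by 1.11 (SE 0.29), the kinetochore protein Cenpf by 1.00 (SE 0.37), the chromosome structure protein Smchd1 by 0.78 (SE 0.30) and the deacetylase Hdac1 by 0.63 (SE 0.24). Some of these falls rest on few CPA18 Ribo-seq counts: 2, 3 and 4 for Aurkb, 8, 4 and 9 for Cenpf and 13, 3 and 12 for Atrx. The control and CPA18 levels of Atrx and of Cenpf overlapped. At 1 h 4 genes rose and none fell, beside 3.75% and 2.92% of all genes. Among them were Hjurp at 0.85 (SE 0.24) and the Polycomb chromobox genes Cbx6 and Cbx8, picked out after their values were seen, at 0.86 (SE 0.20) and 1.53 (SE 0.41). These 4 calls became 2 without the experiment block, 2 without experiment 1 and 1 without experiment 2.

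Between 1 h and 18 h, 9 of the 55 genes were higher and 4 lower in mRNA-seq (33.8% and 5.77% of all genes), and 3 were higher and 11 lower in Ribo-seq (18.2% and 5.41% of all genes). In occupancy none was called with edgeR, beside 0.0577% and 0.0144% of all genes, with 1 higher and 4 lower at an unadjusted p under 0.05.

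Atf4, the stress-response transcription factor whose translation is known to rise under ER stress, serves as a rough gauge for the size of the changes in the 3 genes. Its Ribo-seq level rose by 2.76 (SE 0.17) at 1 h and 3.76 (SE 0.18) at 18 h and its mRNA-seq level by 1.46 (SE 0.26) and 3.19 (SE 0.27), each with an edgeR adjusted p of at most 2.3e-05. Its occupancy changes of 1.29 (SE 0.31, adjusted p = 0.0622) and 0.57 (SE 0.31, adjusted p = 0.573) did not pass in the same edgeR fit. The fitted occupancy changes of Kmt5c and Cenpb were larger at both times and that of Cdyl2 at 18 h, as values side by side and without a test of the difference. The 3 genes were chosen for a raised ratio and Atf4 was not, so this order was partly set by the choice. For Cenpb at 1 h the gap, 1.51 (SE 0.33) against 1.29 (SE 0.31), was smaller than either SE. The Atf4 transcript had a 5′ untranslated region of 594 nt with 2 upstream open reading frames. Counts cover whole transcripts, so footprints there and on its coding sequence were not told apart.

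Genes with an occupancy pattern like that of each member were sought by Pearson's r of log2 occupancy over the 9 pairs of libraries, among 4969 genes with a mean count of at least 10 in both assays. These are descriptions over 9 points that share treatments, experiments and depth. For Kmt5c the closest were Igf2 (r = 0.965), which encodes an insulin-like growth factor, Ddx55 (0.938), Gm20594 (0.910), Zscan26 (0.894) and Vmac (0.893). They varied less than Kmt5c: mean log2 occupancy went from 0.59 in control to 1.85 in CPA18 for Igf2 and from 0.07 to 4.92 for Kmt5c. Gm20594 shares a run of 65 bases with the mitochondrial 16S ribosomal RNA, so its reads may come from either.

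For Cenpb the closest were Tbc1d22b (r = 0.979), Cdk2ap1 (0.976), Psd (0.969), Mrps26 (0.968) and Mlec (0.965), and all 5 had, like Cenpb, fewer ribosome than message reads per length in the control mean. For Cdyl2, which itself had a mean mRNA-seq count of 8.11 and so lay under the minimum set for the others, they were Frs2 (0.913), Lars2 (0.898), Pts (0.895), Ddx55 (0.868) and Kmt5c (0.866). Kmt5c and Cdyl2 were both chosen for raised occupancy under CPA, so their likeness was partly set by the choice. Lars2 was an unusual gene here, with a mean mRNA-seq count of 372509 and a mean log2 occupancy of −5.89 in control. The reason was not tested. The patterns of Kmt5c and Cenpb (0.455) and of Cenpb and Cdyl2 (0.359) were less alike.

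**Figure D5:**
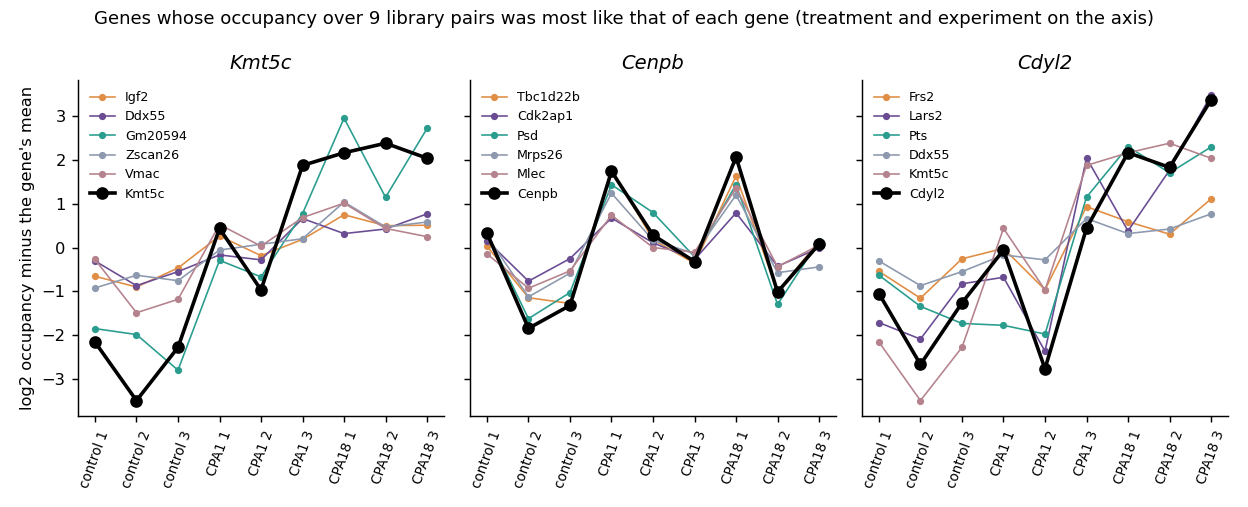
Log2 ribosome occupancy minus each gene's own mean over 9 library pairs (treatment and experiment on the x axis) for Kmt5c, Cenpb and Cdyl2 in black with their 5 most similar genes. Kmt5c stepped up between control and CPA18 with an r of 0.965 to Igf2, Cenpb and its nearest genes peaked in experiment 1 of each treatment, and Cdyl2 rose mainly in CPA18.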

How the data were processed

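Poly(A)-selected, alkali-fragmented RNA (mRNA-seq) and RNase If-digested monosomes (Ribo-seq) were sequenced from MIN6 cells under 3 treatments in 3 experiments. Per the study's methods, the authors aligned reads of 15 to 40 bases to mouse RefSeq RNA (GRCm38.p6) with Bowtie2 and deposited raw counts per transcript, RPKM relative to the total of aligned reads, and the transcript length in nt (another unit); the strand setting and the treatment of reads that fit several transcripts are not given in the sources used here. Of 30741 deposited transcripts, 30227 matched RefSeq with version and 478 without, and 36 did not match. Counts and RPKM were summed per gene over the 10163 transcripts detected (1 read or more) in every one of the 18 libraries, which gave 6929 genes, and RPKM recomputed from the counts differed by at most 0.0011 on the log2 scale. The 2 control libraries of experiment 2 carry descriptions that name the other assay and were placed by title, molecule and column header.

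Counts were tested with edgeR 4.0.16 (quasi-likelihood, library totals, experiment as a block, Benjamini-Hochberg adjustment over all 6929 genes, threshold 0.05), and occupancy as the interaction of assay and treatment. Experiments are named as batches in the labels. Same-numbered libraries deviated together in mRNA-seq (mean r of 0.568 over 9 pairs) and only weakly in Ribo-seq (mean r of 0.142 over 9 pairs, 0.080 to 0.190). CPA1 mRNA-seq of experiment 2 was also weakly tied, with r of 0.124 to control and 0.112 to CPA18. Beside the edgeR fit, TMM and median scaling, totals without Ins1, Ins2 and Lars2 and other filters were tried. So were limma 3.58.1 on log2(RPKM + 0.5), DESeq2 1.42.0, no block, a GC and length offset and leaving out each experiment. The code was tested on simulated counts. The 3 genes and the gene lists were chosen with earlier results of these data known. Named list genes are the 2 largest increases and the 2 largest decreases per list among those called at 18 h in mRNA-seq and in Ribo-seq, and any called in occupancy. Intervals cover counting error only. P-values measure the spread between cultures of 1 line. Sequences are from RefSeq on GRCm38.p6. The values of 1 further list gene called in Ribo-seq are not reported here.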

Additional observations from a re-analysis of the deposited data

Results flagged for a closer look

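Single genes of the chromatin lists differed between 1 h and 18 h of CPA, by the CPA18 minus CPA1 contrast of the edgeR fit with Benjamini-Hochberg adjustment. In mRNA-seq 13 of the 55 list genes passed (16.4% higher and 7.27% lower), and of the genes named in the text Kdm4a (2.13), Nsl1 (1.70), Mis12 (1.18), Ezh1 (1.15) and Zwint (0.95) were higher at 18 h and Atrx (−1.42), Dnmt3a (−1.35), Chd4 (−0.98) and Spc25 (−0.97) lower, as log2 differences. In Ribo-seq 14 passed (5.45% higher and 20% lower), and of the genes named Kdm4a (1.15) and Zwint (0.86) were higher at 18 h, and Atrx (−1.72), Aurkb (−1.69), Cbx8 (−1.62), Cenpf (−1.44), Chd4 (−0.97), Smchd1 (−0.92), Dnmt3a (−0.86), Spc25 (−0.84) and Cbx6 (−0.61) lower. Beside these shares, 33.8% of all genes were higher and 5.77% lower in mRNA-seq, and 18.2% higher and 5.41% lower in Ribo-seq. In ribosome occupancy 0 list genes passed with edgeR, with 1 higher and 4 lower at an unadjusted p under 0.05, so the lists gave no call of their own for the readout in which Cdyl2 differed most between the times.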

How the results depend on the processing

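The mean occupancy changes of Kmt5c, Cenpb and Cdyl2 kept their direction under each of 12 alternatives. These alternatives were not all distinct. Leaving out the control mRNA-seq of experiment 2 gave the same value as leaving out experiment 2. Cenpb and Cdyl2 have 1 RefSeq transcript each, so the choice of transcripts could not change them. The 3 genes were chosen for this rise, so its direction was partly set by the choice. Taking the most read transcript alone gave Kmt5c 4.19 at 1 h and 5.83 at 18 h, and adding 0.5 RPKM before the ratio gave Cdyl2 2.67 at 18 h. Leaving out 1 experiment gave 2.56 to 3.38 and 4.32 to 5.10 for Kmt5c at 1 h and 18 h, 1.21 to 1.77 and 1.12 to 1.57 for Cenpb, and 0.45 to 1.35 and 3.86 to 4.57 for Cdyl2. The experiments pair the libraries, and without the replicate block the fitted changes were 3.66 and 4.87 for Kmt5c, 1.56 and 1.39 for Cenpb and 1.28 and 4.21 for Cdyl2, but the list calls were 0 and 1 in mRNA-seq at 1 h and 18 h (1 and 14 with it), 2 in Ribo-seq at 1 h (4 with it) and 0 in occupancy at 18 h (1 with it); over all genes the mRNA-seq calls at 18 h were 137 in place of 2421 and the occupancy calls 3 in place of 33.

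The single mRNA-seq list call at 1 h became 0 with TMM, with totals without Ins1, Ins2 and Lars2, with median centring, limma, DESeq2, the most read transcript, the GC and length offset, or without the control mRNA-seq of experiment 2, which also left 7 calls at 18 h. In Ribo-seq limma gave 0 calls at 1 h and TMM 17 at 18 h. In occupancy at 18 h the call became 0 under the stricter filter, limma, DESeq2 (no adjusted p for 23 of the 55 genes) and the most read transcript. Leaving out 1 experiment gave 0 to 1 and 7 to 13 calls in mRNA-seq at 1 h and 18 h, 1 to 3 and 7 to 10 in Ribo-seq, and 0 to 2 in occupancy at either time; the cause of these moves was not tested. Of 424 alternative values for the called genes named, 321 kept their call, 103 lost it and 0 reversed. Counts below 20 in most Cdyl2 libraries limit that gene most.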
